A study of Homo sapiens with 2 samples.

Results

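Crosslink sites of hnRNPM on NEAT1 and MALAT1, a pair of long noncoding RNAs that stay in the nucleus, are described here from 1 list of sites mapped in HMLE cells. A site was counted as lying on one of these RNAs when it was on the plus strand of chromosome 11 and its middle fell inside 65190269 to 65213011 (NEAT1) or 65265233 to 65273940 (MALAT1) in the genome build GRCh37. This gave 15 of the 54373 sites in the list, 13 on NEAT1 and 2 on MALAT1. The RNAs were chosen by the heights of their sites, known to be among the tallest of the list, so heights and all measures drawn from them are a description and were not tested.

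The binding was measured by iCLIP, in which proteins are fixed to bound RNA by ultraviolet light and pulled down with an antibody, and the stops of reverse transcription at the fixed bases are counted. The HMLE line consists of immortalised human breast epithelial cells. Both libraries came from wild-type cells given DMSO, labelled biological replicates 1 and 2, and the antibody was against hnRNPM, an RNA-binding protein that takes part in splicing. There was no other genotype, treatment, time point or antibody control, and the list held no value per library, so no spread between replicates can be given and the depth of each library is unknown. Expression was not measured alongside, so the cell type could not be checked against its markers.

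NEAT1 is the RNA scaffold of paraspeckles, nuclear bodies that gather splicing factors and other RNA-binding proteins. It is made as a short polyadenylated form and as a long form that shares its start, and the long form is the one that builds the paraspeckle. MALAT1 is an abundant RNA of nuclear speckles, where splicing factors are stored, and it lies downstream of NEAT1 on the same strand. hnRNPM is known to prefer RNA rich in G and U.

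NEAT1 (ENSG00000245532) spans 22743 nt and MALAT1 (ENSG00000251562) spans 8708 nt between the bounds used here. In GENCODE release 29 each has 1 transcript of exactly that length made of 1 exon, NEAT1-202 and MALAT1-202, so the bounds enclose exon only in those transcripts. GENCODE 29 is built on GRCh38, and no genome position was carried from one build to the other. Positions below are counted from the 5′ bound of the RNA. The base sequence at the sites was not read, because no GRCh37 sequence was used here.

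The RNAs themselves can be read by transcript name, and NEAT1 had a high share of G and U together, mostly through U. G and U (T in the sequence file) together made up 55.3% of NEAT1-202 and 53.2% of MALAT1-202, against a median of 49.8% in 5676 long noncoding transcripts of at least 2000 nt. These shares stood at the 99.1th and 94.2th percentile of those transcripts. U alone made up 31.7% of NEAT1-202 and 29.3% of MALAT1-202, against a median of 26.2%, and G alone 23.6% and 23.9%, against 23.1%. The motif GTTG, searched on the RNA strand only and with overlaps counted, occurred 5.41 times per kb in NEAT1-202 and 4.36 times in MALAT1-202, against a median of 2.94. The motif GTGTG, whose matches can overlap each other and those of other GU motifs, separated the RNAs. It had 4.57 matches per kb in NEAT1-202 (97.4th percentile) and 1.03 in MALAT1-202 (44.7th percentile), against a median of 1.17. The other motifs searched were TGTT, with 8.22 and 6.66 matches per kb in NEAT1-202 and MALAT1-202 against a median of 4.98, TTGTTG, with 1.06 and 0.345 against 0.245, and GGTTGG, with 0.352 and 0.459 against 0. A window of 21 bases, the width of a site, held GTTG in 8.89% of positions along NEAT1-202 and in 7.87% along MALAT1-202, against a median of 5.12%. Such windows held GTGTG in 4.16% of positions along NEAT1-202 (93.6th percentile) and 1.59% along MALAT1-202 (43.0th percentile), against a median of 1.77%. The RNAs thus lay closer by windows than by matches per kb.

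The stretch of 60 bases with the most GTTG matches on NEAT1-202 is printed to show what this composition looks like, with the matches in capitals. It held 5 matches and ran from base 2303 to 2362 of the transcript, the first of 18 overlapping stretches with that number.
NEAT1-202, bases 2303 to 2362: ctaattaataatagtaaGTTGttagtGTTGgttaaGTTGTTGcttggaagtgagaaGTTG
The second site of NEAT1, described below, had its middle at nt 2339 counted from the 5′ bound, a number inside that range. It is the only one of the 15 sites set beside sequence here, and it was picked because its number fell in the range. No pattern of the sites can be drawn from it. The site was counted on GRCh37 and the stretch on a transcript of the same length built on GRCh38, and whether the bases correspond was not tested. On MALAT1-202 no stretch of that length held more than 2 matches.

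Along NEAT1, the first site lay 1839 nt from the 5′ bound and the last 2542 nt before the 3′ bound. The height of a site, the whole number that the authors deposited with it, is read here as the number of reverse transcription stops there. Site 1, at 65192097 to 65192117, had a height of 1503, with a 95% exact Poisson interval of 1428 to 1581. Site 2, at 65192597 to 65192617, had a height of 1043 (981 to 1108). These intervals cover counting error only, and the treatment of PCR duplicates was not given in the sources used here. Both sites stood high at the start of the RNA, and they were followed by a drop. Site 3, at 65194335 to 65194355 and nt 4077, had a height of 195 (169 to 224), and site 4, at 65195974 to 65195994 and nt 5716, one of 244 (214 to 277).

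The heights of the next 4 sites went up and down, with the tallest site of the RNA at their end. Site 5, at 65196676 to 65196696 and nt 6418, had a height of 422 (383 to 464). Site 6, at 65197120 to 65197140 and nt 6862, had one of 1432 (1359 to 1508), although it lay only 444 nt from site 5, the shortest distance on either RNA. Site 7, at 65198621 to 65198641 and nt 8363, was lower again at 645 (596 to 697). Site 8, at 65199405 to 65199425 and nt 9147, reached 1969 (1883 to 2058), the greatest height of the whole list.

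The middle of the long form was followed by 4 sites of increasing height. The 4007 nt after site 8 held no site, the longest such stretch between neighbours on NEAT1. Site 9, at 65203412 to 65203432 and nt 13154, had the lowest height on either RNA, 149 (126 to 175). Site 10, at 65204169 to 65204189 and nt 13911, had a height of 371 (334 to 411), and site 11, at 65204740 to 65204760 and nt 14482, one of 563 (517 to 611). Site 12, at 65206569 to 65206589 and nt 16311, was the tallest of these with 845 (789 to 904). Each of the steps from site 9 to site 12 exceeded the counting intervals of the neighbours.

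Site 13, at 65210459 to 65210479 and nt 20201, stood apart near the 3′ end with a height of 469 (428 to 513). It lay 3890 nt beyond site 12 and was the only one in a tag cluster of its own; the authors had placed sites 1 to 12 together in 1 tag cluster, a grouping of reads that the file names but does not define. The heights on NEAT1 thus covered a 13.2-fold range, with a median of 563. The 4 sites above 1000 (sites 1, 2, 6 and 8) carried 60.4% of the summed height of 9850.

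**Figure D1:**
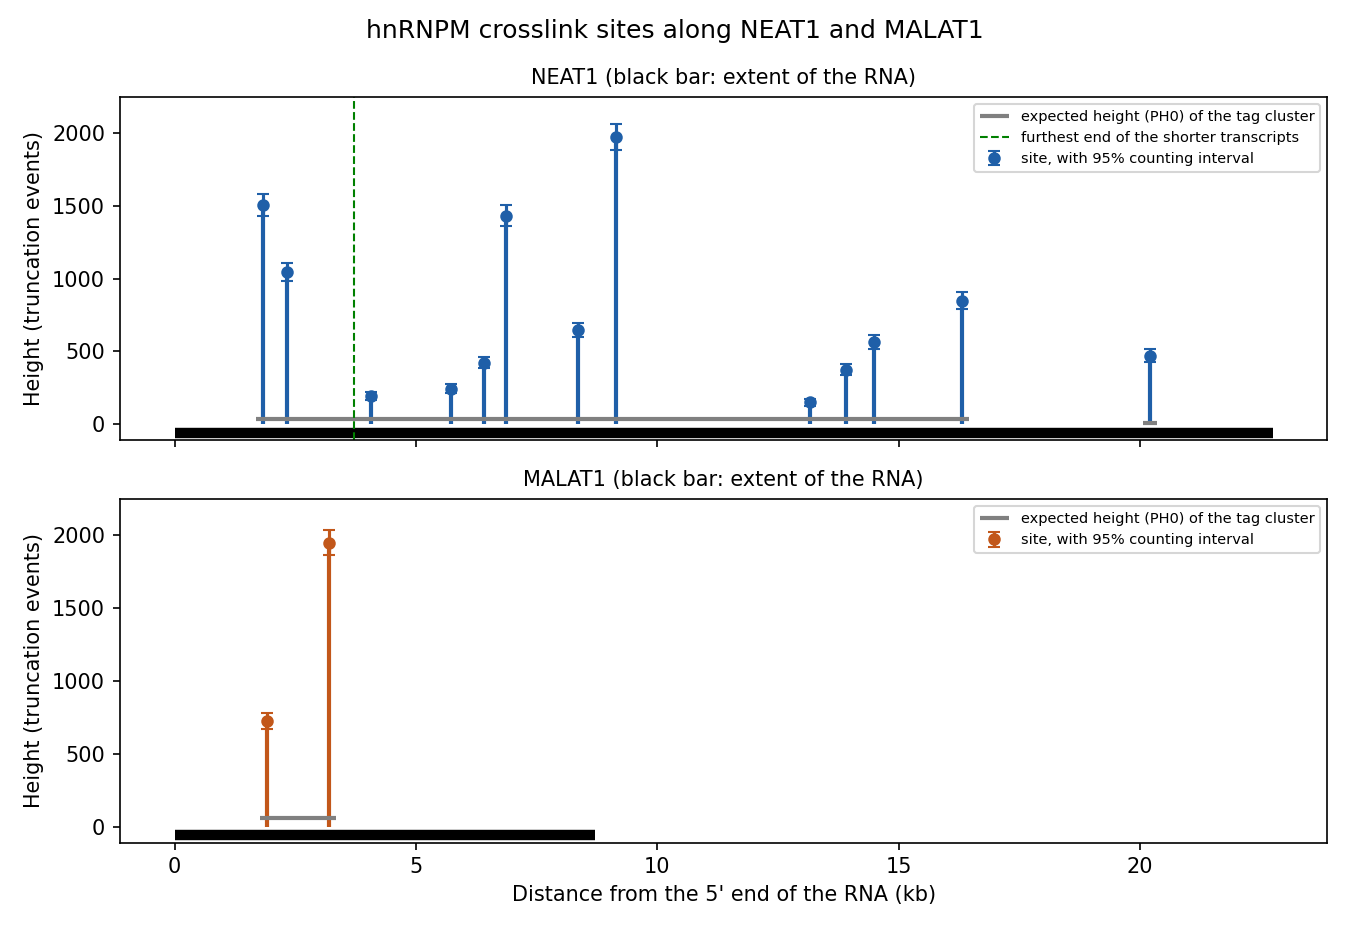
Height of each hnRNPM site (vertical axis, number of reverse transcription stops, with the 95% counting interval) against its distance from the 5′ end of NEAT1 (upper panel) and MALAT1 (lower panel) in kb; black bars give the extent of each RNA, grey lines the expected height of the tag cluster and the dashed line the furthest end of the shorter NEAT1 transcripts. NEAT1 has 13 sites spread from nt 1839 to nt 20201, while the 2 sites of MALAT1 lie at nt 1920 and nt 3196.

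On MALAT1 both sites lay towards the 5′ end. Site 1, at 65267142 to 65267162 and nt 1920, had a height of 722 (670 to 777). Site 2, at 65268418 to 65268438 and nt 3196, had a height of 1949 (1863 to 2037), which was 2.70 times that of site 1 and 73.0% of the summed height of 2671. The distance between them was 1276 nt, and the remaining 5512 nt to the 3′ bound held no site. The 3′ part of MALAT1, where the RNA is known to be cut to release a small tRNA-like RNA and to form a protective triple helix, was among the sequence without a site.

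The tallest sites of the RNAs could not be ranked against each other. The interval of site 8 of NEAT1 (1883 to 2058) overlapped that of site 2 of MALAT1 (1863 to 2037). The next in order, sites 1 and 6 of NEAT1, also overlapped each other and lay below both. Of the 14 neighbouring pairs in the order of all 15 heights, 8 had overlapping intervals. Site 9 of NEAT1 was lowest, and its interval overlapped that of site 3.

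When the RNA was divided into 3 parts of equal length, the sites of NEAT1 thinned out towards the 3′ end. The 5′ part held 6 sites and 49.1% of the summed height, the middle part 5 sites and 37.5%, and the 3′ part 2 sites and 13.3%. The GTTG motif had 5.94, 5.94 and 4.35 matches per kb in the same parts of NEAT1-202, and GTGTG had 4.62, 3.03 and 6.07. TGTT, with 9.50, 8.18 and 6.99, fell in the same order as the sites. TTGTTG, with 0.791, 1.58 and 0.791, and GGTTGG, with 0.264, 0.528 and 0.264, were densest in the middle part. The motifs therefore did not share 1 order. On MALAT1 such parts held 1 site, 1 site and 0 sites. Its GTTG motif had 2.76, 6.54 and 3.79 matches per kb. The middle part, with the most GTTG matches, held the taller site, but the 5′ part, with the fewest, held the other and the 3′ part none. TGTT had 2.41, 9.65 and 7.93 and GTGTG 1.03, 1.72 and 0.345. TTGTTG had 0, 0.344 and 0.689 and GGTTGG 0, 1.03 and 0.345. With 15 sites these are descriptions, and no relation between motifs and sites was tested.

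Most of the NEAT1 signal lay in the part that only the long form has, which is also most of its length. In GENCODE 29 the 7 other transcripts of NEAT1 all ended within 3716 nt of the 5′ end of NEAT1-202. Any end placed between sites 2 and 3 (nt 2339 and nt 4077) divides the sites and their heights in the same way. Shares of length and values per kb would differ with another end, and were taken at nt 3716. Beyond it lay 11 sites with a summed height of 7304, which was 74.2% of the RNA's total on 83.7% of its length, and within it lay 2 sites with 2546. With this end, sites were about equally dense in both parts, at 0.538 per kb in the shared part and 0.578 per kb beyond it. The summed height per kb was higher in the shared part, at 685 against 384, and the shared part can be read from either form of the RNA. How much of each form the cells held was not measured.

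Both RNAs took a larger share of the list's height than of its sites. NEAT1 carried 433 units of height per kb and MALAT1 307, with 0.572 and 0.230 sites per kb. Together the 15 sites were 0.0276% of the sites in the list and 1.47% of its summed height. On chromosome 11 they were 0.573% of 2619 sites and 23.8% of the height. The median height was 563 on NEAT1 and 1335.5 on MALAT1, against 11 in the list. The heights were not corrected for the amount of RNA, and the part of RNA abundance in them was not tested.

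Set against the level of their own tag cluster, the sites no longer stood at one end of the list. The authors gave each tag cluster a value marked PH0, read here as the height expected at a position if stops were spread over the cluster. PH0 was 61.46 for the MALAT1 cluster, the highest of all clusters, 32.16 for the 12-site NEAT1 cluster, which ranked 4th, and 9.18 for the cluster of site 13. The list median was 0.51. The median height over PH0 was 20.1 on NEAT1 and 21.7 on MALAT1, against 23.7 in the list, where the quartiles were 18.3 and 30.6. On this measure 7 of the 13 sites of NEAT1 and 1 of the 2 of MALAT1 fell below the list median.

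**Figure D2:**
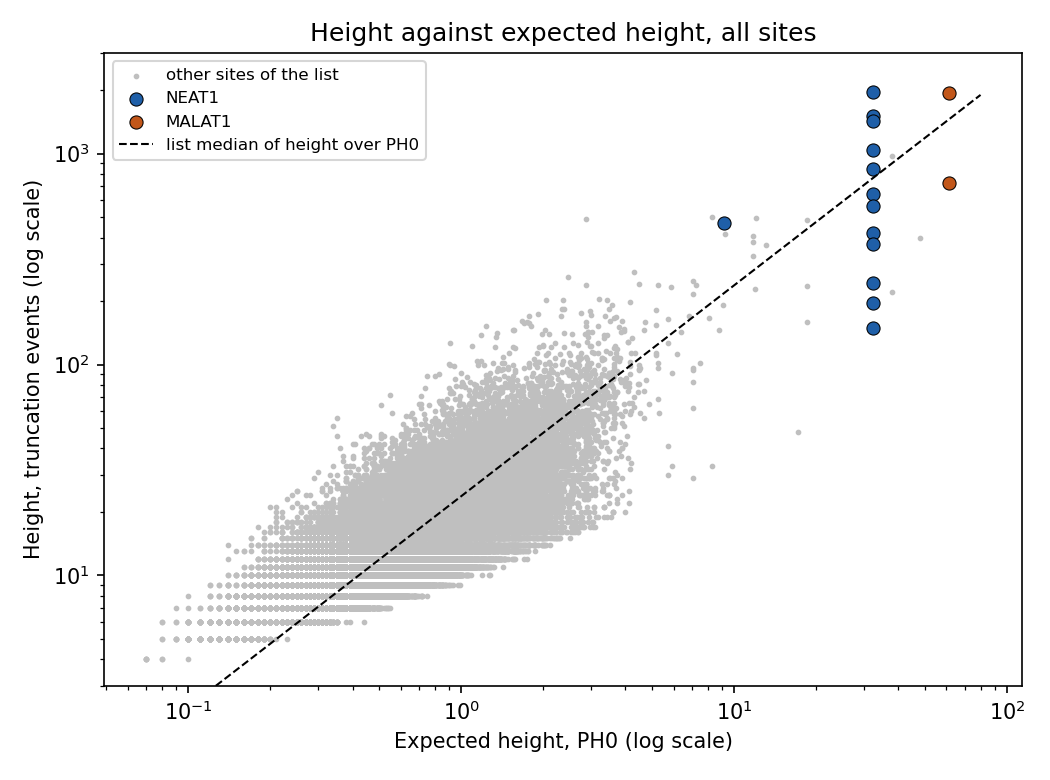
Height (vertical, log scale) against expected height PH0 (horizontal, log scale) for each site of the list, with NEAT1 in blue, MALAT1 in orange and the list median of the ratio as a dashed line. The 12 NEAT1 sites of 1 cluster form a column at a PH0 of 32.16 that crosses the dashed line.

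NEAT1 held values near both ends of this ratio. Site 8 stood 61.2 times above its expected height, at the 98.9th percentile of the list, followed by site 13 with 51.1 times, site 1 with 46.7 times and site 6 with 44.5 times. Site 9, at 4.63 times, ranked 4th from the lowest among all 54373 ratios, and site 3, at 6.06 times, ranked 27th from the lowest. Site 13 was shorter than site 11 (469 against 563) but had the higher ratio, 51.1 against 17.5, since its own cluster had the lower PH0. MALAT1 site 2 stood 31.7 times above its expected height and site 1 11.7 times. Within 1 cluster the ratio follows the height, because PH0 is the same for each of its sites.

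**Figure D3:**
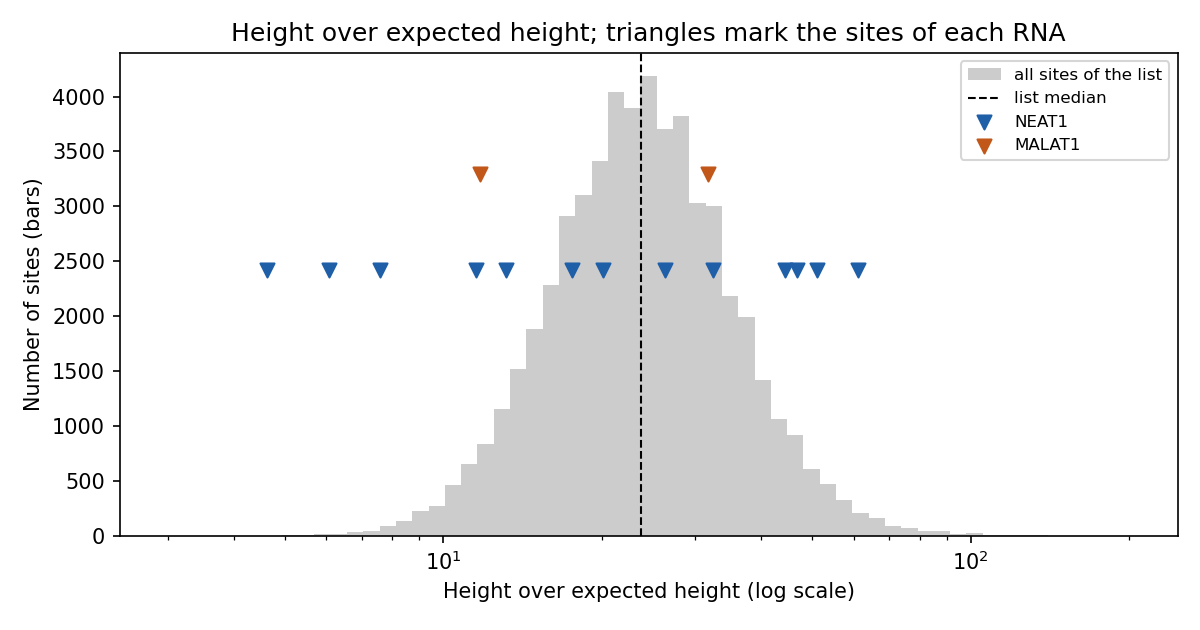
Number of sites of the list (bars) by height over expected height (horizontal, log scale), with the list median as a dashed line; triangles mark the ratios of the NEAT1 and MALAT1 sites, at arbitrary heights. The NEAT1 triangles run from 4.63 to 61.2, and the MALAT1 triangles stand at 11.7 and 31.7.

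Other tall sites of the list had higher ratios than these RNAs. The 177 further sites that reached a height of 100 had a median ratio of 45.6 (quartiles 32.7 and 62.7), and 15 of them (8.47%) fell below the list median, against 8 of the 15 on NEAT1 and MALAT1. These sites were picked by height, which is part of the ratio. Where PH0 is low, a site reaches 100 only with a high ratio, so the difference was partly fixed by the limit. The deposited P was the same for the sites of 1 tag cluster on these RNAs: it was 8.41e-11 for sites 1 to 12 of NEAT1 despite their 13.2-fold range of heights, 2.49e-12 for site 13, and 1e-100 for both MALAT1 sites. A smaller P than 8.41e-11 was deposited for 19324 sites (35.5% of the list). All sites of a cluster shared 1 P in 16.6% of the 9351 clusters with more than 1 site.

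The 12-site cluster of NEAT1 differed in scale from the clusters that held as many sites. Only 1 other cluster held 12 sites, on chromosome 16 from 81494490 to 81500569, and its summed height was 239, against 9381 on NEAT1 (39.3 times). The 10 other clusters with at least 10 sites, a limit chosen after the values were seen, had median heights from 15.5 to 34 and a PH0 from 0.85 to 1.94. Their tallest and lowest sites differed 2.27-fold to 5.07-fold, compared with 13.2-fold on NEAT1. Their ratios of height to PH0 ran from 7.87 to 42.4, a range that the NEAT1 cluster passed at both ends. Wider ranges, found among the tallest clusters outside both RNAs, are given below.

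**Figure D4:**
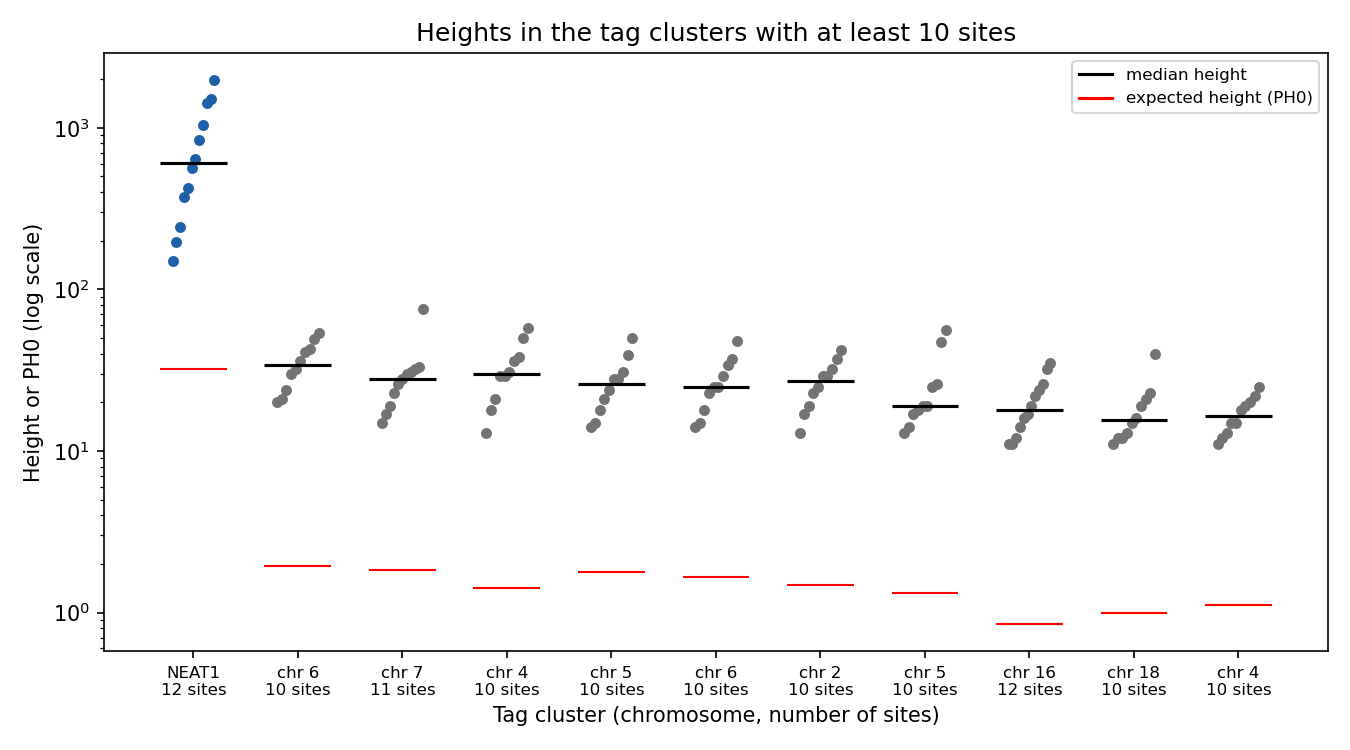
Heights of the sites (points, log scale) in the 11 tag clusters with at least 10 sites, with the median height (black line) and PH0 (red line) of each; NEAT1 is in blue and the other clusters are named by chromosome. The lowest NEAT1 site, at 149, lies above each site of the other 10 clusters.

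The sites of NEAT1 were also spaced more widely than those of the other clusters with at least 10 sites. The 11 distances within its large cluster had a median of 784 nt, and 5 of them exceeded 1000 nt. Over the list, 14244 distances between neighbours in 1 cluster had a median of 332 nt (quartiles 87.75 and 604), and 7.98% exceeded 1000 nt. The gap of 4007 nt after site 8 was 1 of 2 such distances above 4000 nt. In each of the 10 other full clusters the closest pair lay 27 to 175 nt apart, while on NEAT1 no pair was closer than 444 nt. The NEAT1 cluster ran over 14493 nt and the others over 2766 to 6080 nt. Such spacing was not particular to NEAT1. The MALAT1 sites lay 1276 nt apart, and a 7-site cluster on chromosome 10, named below, had a median distance of 982 nt. The rest of the tall clusters named below had medians from 65 to 520.5 nt. Distances are between listed sites only, and the lowest listed in the NEAT1 cluster was 149 high.

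The 5 clusters outside both RNAs with the greatest summed heights held 2 to 7 sites each. The first lay on chromosome 2, minus strand, from 133012872 to 133012968, with 2 sites, a summed height of 1196 and a PH0 of 37.97. It was followed by 4 more on minus strands, on chromosome X from 73070759 to 73071526 (3 sites, summed height 881), chromosome 10 from 47141178 to 47147578 (7 sites, 829), chromosome 9 from 21536838 to 21536923 (2 sites, 789) and chromosome 15 from 60661117 to 60663363 (5 sites, 609). Their median ratios of height to PH0 ran from 12.7 to 33.7. The large NEAT1 cluster, at 18.8, and the MALAT1 cluster, at 21.7, lay inside that range. Within single clusters of these 5, the tallest and lowest sites differed 1.08-fold to 8.59-fold, below the 13.2-fold on NEAT1. Ratios of single sites ran from 4.09 to 53.5, so the NEAT1 cluster, from 4.63 to 61.2, passed them only at the upper end. Genes at these 5 places were not analysed here.

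The plus strand around both RNAs was empty of sites. No plus-strand site lay in the 52.2 kb between them, and no minus-strand site lay within either RNA's bounds. The minus strand between the RNAs was not counted. The nearest plus-strand site upstream of NEAT1 was 140 kb away with a height of 5, and the nearest downstream of MALAT1 was 558 kb away with a height of 10. On the minus strand the last site before NEAT1 was 344 kb upstream of it, and the first after MALAT1 was 1381 kb downstream.

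The running numbers in the names of the sites had many gaps along these RNAs. The numbers increased along each strand of each chromosome. Those from the first to the last NEAT1 site spanned 136, of which 13 (9.56%) were in the list, and those of MALAT1 spanned 12, of which 2 (16.7%) were. Over the whole list 24.2% of the numbers up to the highest were present. A further 20 numbers, none of them listed, fell between the last NEAT1 and the first MALAT1 site. What the missing numbers stood for is not given in the sources used here.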

How the data were processed

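Sites of hnRNPM binding came from 1 deposited list for 2 iCLIP libraries, on the build GRCh37 (per the submitters' processing notes). Aligner, site caller, duplicate handling and pooling are not given in the sources used here. Per site, the authors deposited a score, a whole number equal to the PH value in its name, called the height. The name, deposited as other text, also held the tag cluster, PH0 and P, which the file does not define. Both columns were taken as pooled over the libraries.

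The members, lists and limits were chosen with earlier results of these data known. Sites were placed by their middle, parts of an RNA by position, and intervals are exact Poisson intervals (95%). No test was run, as there was 1 group with no value per library. Named in full were the 5 tallest sites of each RNA, the first and last, those of extreme height over PH0, and the 5 further clusters of greatest summed height; the positions of the other sites are given too. Composition used GENCODE 29 transcripts. Related genes, markers and sequence at the sites were not analysed without GRCh37 references. The script that assigns sites to the RNAs was checked on a made-up list with planted sites. Alternatives covered taller sites, smaller P, merging, bounds, PH0 and strand. Tools were matplotlib 3.10.9, scipy 1.17.1, pandas 2.3.3, numpy 2.4.6 and Python 3.11.15.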

Additional observations from a re-analysis of the deposited data

How the results depend on the processing

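Of 85 values under 9 other settings, 73 stayed as reported (counts within 1.5 times, shares within a Wilson interval, other values equal) and 12 moved. The share of MALAT1 in its 5′ part of 3 went from 50% by number of sites to 27.0% by summed height; it is counted as unmoved only because an interval over 2 sites is very wide, and so says nothing about stability. The number of sites on NEAT1 and MALAT1 stayed at 13 and 2 under each alternative on the plus strand, and the minus strand of the same bounds held 0 on both. The lowest height here was 149, the closest pair lay 444 nt apart and the next plus-strand site upstream was 140 kb away. The unchanged counts, and sums and medians over the same sites, were therefore largely fixed in advance and do not show stability. The share of the list's summed height, 1.15% on NEAT1 and 0.313% on MALAT1, was 1.49% and 0.404% among sites at or above the median height, 1.89% and 0.513% among sites with a P of at most 1e-10, and 1.20% and 0.326% with sites within 50 nt merged; these alternatives remove sites elsewhere and none here. With PH0 subtracted, the summed heights were 9455 and 2548. Divided by the median height of the cluster in place of PH0, the median ratio was 1 on both RNAs, by construction. No paired analysis was possible because both libraries were of 1 group and shared 1 list; leaving out a replicate was not possible either. The wider window for sequence at the sites was not run. Library depth is unknown, so lower sites that were missed cannot be estimated.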
